A study of Mus musculus with 9 samples.

Results

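HIF2-overexpressing duodenal organoids were compared with GFP control organoids across all genes by RNA sequencing. The 6 samples compared, of 9 in the series, were taken by the virus named in their labels, 3 transduced with Adeno-hHIF2 (Ad-hHIF2) and 3 with Adeno-GFP (Ad-GFP). Both groups came from duodenal crypts of wild-type C57BL/6J mice, whose age and sex the labels do not give. The crypts were grown as organoids in Matrigel at 5% O2 in medium conditioned with Wnt3a, R-spondin 3 and noggin, which also held nicotinamide, the kinase inhibitor Y27632 and SB431542, an inhibitor of the TGF-β type I receptor kinase. After passaging, the organoids were dissociated, exposed for 1.5 hours to 50 viral particles per cell and harvested for total RNA about 72 hours later. Ad-GFP expressed enhanced GFP from a CMV promoter and controlled for the transduction itself. Ad-hHIF2 expressed human HIF2α in which both prolines that the EGLN enzymes hydroxylate were changed to alanine, and the promoter of this virus is not given in the sources used here. The virus was given to all cells of a dissociated culture and to no chosen cell type, so the values are averages over whole cultures, and in such bulk RNA fewer cells of a type and less RNA per cell cannot be told apart. The replicates are numbered 1, 3 and 4 in both groups, and values per sample are given in that order. The study calls them biological replicates, and where they do not come from separate animals the p-values below measure only the spread between these cultures.

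HIF2α, encoded by Epas1, is the oxygen-regulated subunit of a transcription factor that it forms with ARNT. At normal oxygen the EGLN prolyl hydroxylases mark HIFα subunits for VHL-dependent degradation, and under hypoxia the stabilized dimer binds hypoxia response elements with the core letters ACGTG or GCGTG. In the intestine HIF2 is best known for its targets in the uptake of dietary iron, and in other tissues for erythropoietin and vascular growth factors, whereas many glycolytic genes are classic targets of HIF1.

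The expected counts, which RSEM estimates by sharing reads between the transcripts they match, summed to 21722618 to 51119041 per library. Levels are given below as CPM (counts relative to a library of fixed size) with edgeR's TMM factors. Protein-coding genes held 41.7 to 42.95% of the counts in the Ad-GFP libraries and 45.6 to 59.2% in the Ad-hHIF2 libraries, and small structural RNA held 48.8 to 51.3% and 35.7 to 49.6%. Ad-hHIF2 replicate 1 stood apart, with the highest coding share (59.2%) and the lowest structural RNA (35.7%). Counts on 1609 olfactory and vomeronasal receptor genes, which the gut should not transcribe, served as a measure of background, and they made up 185 to 322 CPM of the coding counts in the Ad-GFP libraries against 68.1 to 146 CPM in the Ad-hHIF2 libraries. This background was thus lower in every Ad-hHIF2 library than in every Ad-GFP library, and its part in the falls below was not tested. The labelled tissue was checked against marker genes. Of 14 epithelial markers, all were tested and summed to 3532 to 3828 CPM in Ad-GFP and 3906 to 4268 CPM in Ad-hHIF2 organoids, most of it from the keratins Krt8, Krt18 and Krt19. The defining intestinal markers Epcam (means under 5 CPM), Vil1 (means under 5 CPM) and Muc13 (means under 1 CPM) were low in both groups, whereas Cdh17, an intestinal cadherin, had means of 119 and 322 CPM. Of 26 goblet, Paneth, enteroendocrine and tuft cell genes, 3 passed the count filter. The 10 fibroblast markers summed to 1131 to 1166 CPM and 1767 to 1827 CPM, nearly all of it Vim, while Col1a1, Col3a1 and Pdgfra had means under 5 CPM in both groups. The 10 immune markers summed to 13.2 to 18.3 and 16 to 21.3 CPM, the 8 endothelial markers to 5.87 to 8.24 and 4.16 to 4.70 CPM, and the 8 muscle and glial markers to 7.26 to 15.1 and 1.97 to 4.77 CPM. The endothelial and the muscle and glial sums were lower in all Ad-hHIF2 libraries, in the same direction as the background.

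The transgene was looked for at the mouse gene Epas1, which holds reads of the human HIF2α message where RSEM placed them there. Reads of the human and the mouse message were not told apart. Epas1 was at 1.66, 1.47 and 2.23 CPM in the Ad-GFP organoids and 760.1, 615 and 666 CPM in the Ad-hHIF2 organoids, far apart in the 2 groups (log2 fold change 8.60, standard error 0.185, adjusted p = 8.06e-08, edgeR). Its dimer partner Arnt rose slightly, from 56.6 to 78.3 CPM (log2 fold change 0.47, standard error 0.0722, adjusted p = 0.00183, edgeR), and Hif1a did not pass the test (222 to 229.7 CPM, adjusted p = 0.756, edgeR).

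Of 12516 protein-coding genes tested, 406 (3.24%) were called higher and 349 (2.79%) lower in HIF2-overexpressing organoids, where a call needed a change of at least 2-fold and, by the quasi-likelihood test of edgeR with Benjamini-Hochberg adjustment over all genes tested, an adjusted p under 0.05. Over all 14987 genes tested the calls were 435 (2.90%) higher and 574 (3.83%) lower. Larger changes were more often rises: 122 coding genes were called higher by at least 4-fold and 51 lower, and at 8-fold these were 41 and 9. Without the fold threshold 2327 coding genes (18.6%) rose and 1666 (13.3%) fell, and these shares are the background for the gene groups below, where rose and fell mean an adjusted p below 0.05 in edgeR. Named genes that lost an adjusted p below 0.05 with a library left out are listed in the section on the processing. The Ad-hHIF2 samples lay entirely above the Ad-GFP samples for 27.4% of coding genes and entirely below for 20.9%. The balance of the calls depended on the scaling, since with library totals and no TMM factors 726 coding genes were called higher and 250 lower, which puts 74.4% of calls on the higher side in place of 53.8% (64.5% in place of 43.1% over all genes). The median log2 fold change over all genes tested was -0.012 with TMM, 0.24 with library totals, 0.12 on log2(TPM + 1) and 0.30 on log2(TPM + 0.1), TPM being the deposited abundance per transcript length, and the medians of gene groups are therefore also given relative to the median of all genes under the same scaling.

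The change was weakly associated with gene length (Spearman's rho 0.19 across 12516 coding genes, and 0.3 across the 6861 with a mean above 10 CPM in the controls; genes are not independent replicates). Coding genes were divided into 5 equal classes by effective length, the length that RSEM counts as able to give a fragment. Among the 2504 shortest genes (up to 1316 bases) 6.95% rose, 20% fell and the median log2 fold change was -0.13, while among the 2503 longest (from 3980 bases) 30.2% rose, 10.1% fell and the median was 0.14. The 3 classes between had medians of -0.004, 0.061 and 0.097, so that the median climbed from class to class. Short messages such as those of ribosomal proteins and long ones such as those of laminins thus start from different backgrounds, and the length of some gene groups is given here or beside their change. The median lengths of the lists of cytokine receptors, EGF family, cadherins, ADAM proteases and canonical Wnt genes described below lie in the class next to the longest, where 23.1% of genes rose. The prostaglandin, metal, glycan and sphingolipid lists also lie in that class. In the shortest class, where 20% of genes fell, lie the chemokines (median 930 bases), S100 proteins and annexins (1076) and long noncoding RNAs (670). The mitochondrial ribosome (899) and mitochondrial import (1272) lie there too. Length was not fitted, and its part in the changes was not tested.

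**Figure D1:**
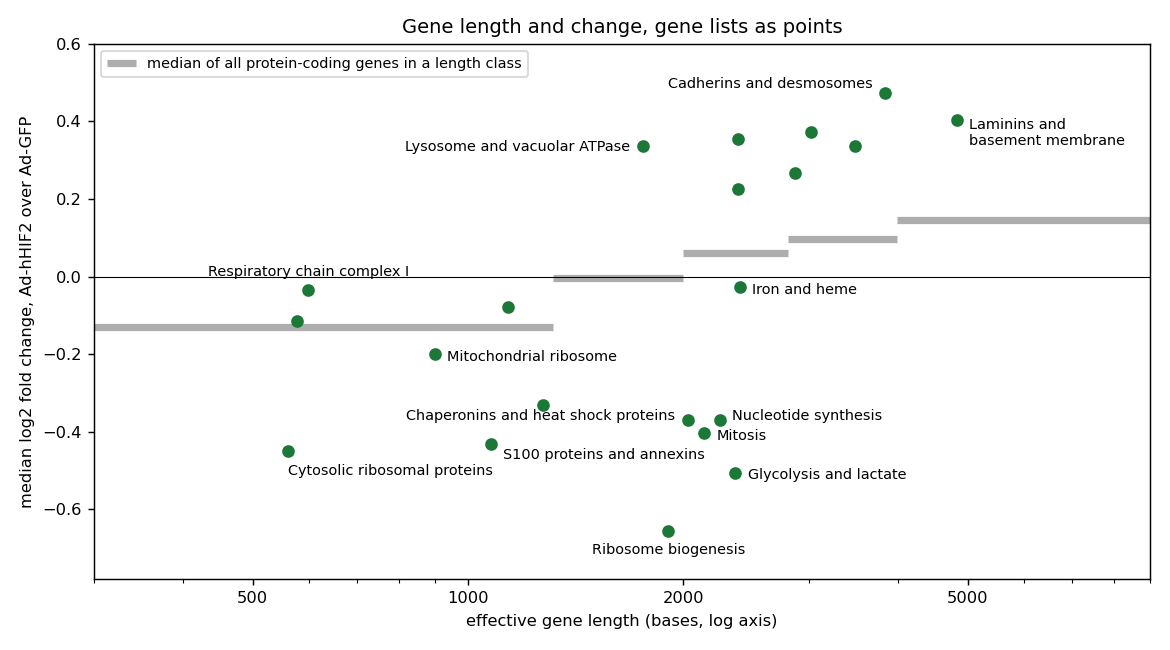
Median log2 fold change (Ad-hHIF2 over Ad-GFP, edgeR with TMM) against effective gene length in bases on a log axis, with grey bars for all protein-coding genes in 5 length classes and green points for 21 gene lists at the median length and median change of their members. The bars climbed from -0.13 to 0.14, and ribosome biogenesis (-0.66) and glycolysis (-0.51) lay below the bar of their class.

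The largest rises included genes of secreted signals, surface proteins and enzymes. Among coding genes with at least 5 CPM in the higher group, and leaving out Epas1 and the genes the study itself names, the 15 largest rises included Pthlh, Edn2, Galnt9, Diras2, Cthrc1, Chrna1, Fat2, Aqp3, Cd109, Srd5a1, Pde2a, Kctd11, Angptl4 and Apln. Pthlh, which encodes parathyroid hormone-related protein, was at 0.331, 0.306 and 0.609 CPM in the Ad-GFP organoids and 27.6, 23.3 and 26.9 CPM in the Ad-hHIF2 organoids (log2 fold change 6.06, standard error 0.195, adjusted p = 3.61e-07, edgeR). The vasoconstrictor gene Edn2 was at 0.580, 0.167 and 0 CPM in the Ad-GFP organoids and 15.2, 16.3 and 16.2 CPM in the Ad-hHIF2 organoids (log2 fold change 5.76, standard error 0.419, adjusted p = 3.24e-05, edgeR). Galnt9, an enzyme that starts mucin-type O-glycans, was at 0.331, 0.501 and 0.0507 CPM in the Ad-GFP organoids and 18.6, 17.5 and 18.2 CPM in the Ad-hHIF2 organoids (log2 fold change 5.75, standard error 0.290, adjusted p = 3.97e-06, edgeR). All 3 were below 1 CPM in every control and above 10 CPM in every HIF2 culture. Diras2, a small Ras-family GTPase, went from 0.688 ± 0.203 to 21.7 ± 2.001 CPM (SD, n = 3, as for all such values), Chrna1, a muscle-type acetylcholine receptor subunit, from 1.72 ± 0.419 to 38.4 ± 1.86 CPM and Fat2, a giant atypical cadherin, from 1.76 ± 0.495 to 22.9 ± 1.29 CPM, with log2 fold changes of 4.91, 4.42 and 3.75 and adjusted p-values of 5.47e-07, 3.34e-07 and 2.29e-06 (edgeR). Cthrc1, a secreted collagen triple helix repeat protein, rose by 4.54 on the log2 scale to 15.4 CPM, and Cd109, a GPI-anchored protein that binds TGF-β, by 3.49 to 49.1 CPM. The rule that picked the 15 largest rises also required groups that do not overlap, so the separation of these genes was set by the choice. Other large rises started from genes already expressed in the controls. Angptl4, a secreted inhibitor of lipoprotein lipase, was at 145, 143 and 162 CPM in the Ad-GFP organoids and 1215, 1297 and 1342 CPM in the Ad-hHIF2 organoids (log2 fold change 3.10, standard error 0.0941, adjusted p = 3.34e-07, edgeR). Kctd11, a cullin adaptor, was at 21.4, 24.04 and 22.9 CPM in the Ad-GFP organoids and 214, 192 and 183 CPM in the Ad-hHIF2 organoids (log2 fold change 3.11, standard error 0.0927, adjusted p = 3.34e-07, edgeR). For these genes the replicates of a group lay close together, and the lowest HIF2 culture was several times above the highest control. Srd5a1, a steroid 5α-reductase, rose from 7.03 ± 0.702 to 73.8 ± 3.25 CPM (log2 fold change 3.39), Aqp3, a water and glycerol channel, from 0.652 ± 0.415 to 8.16 ± 1.04 CPM (3.67), Pde2a, a cyclic nucleotide phosphodiesterase, from 2.004 ± 0.395 to 18.97 ± 1.33 CPM (3.27) and Apln, the apelin peptide, from 1.51 ± 0.340 to 12.9 ± 1.74 CPM (3.09), each with an adjusted p of at most 0.000325 (edgeR).

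**Figure D2:**
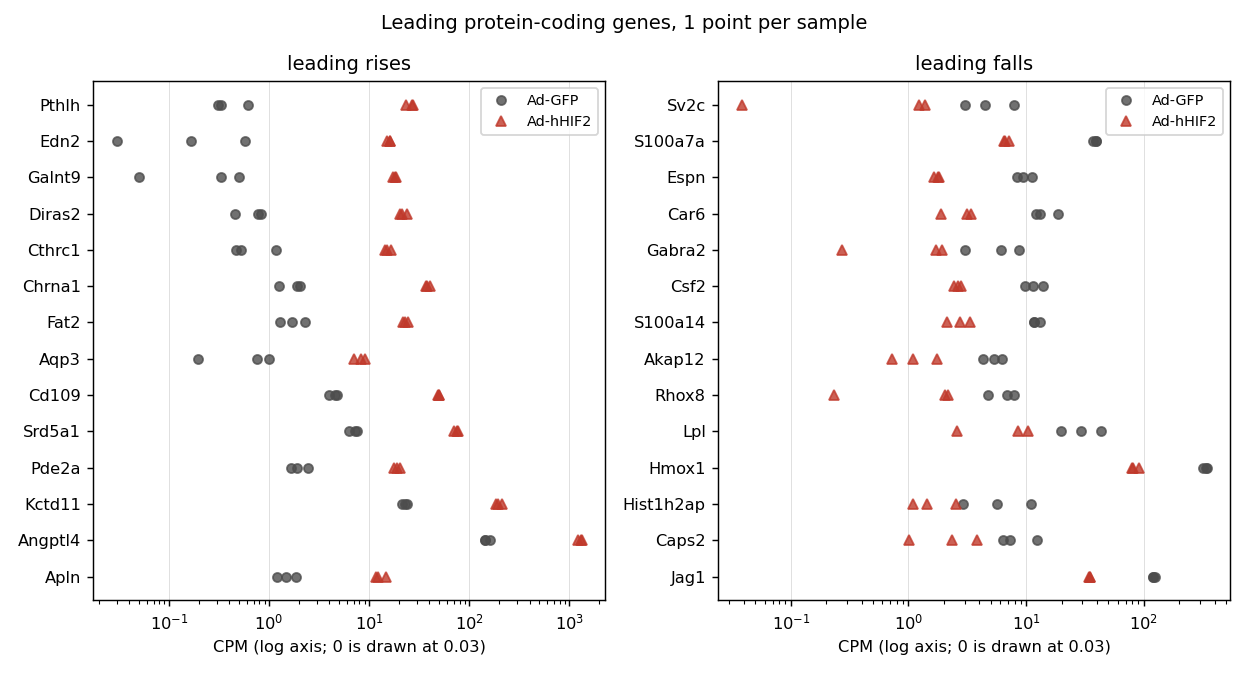
Levels in CPM on a log axis of the leading rises and falls in each of the 3 Ad-GFP and 3 Ad-hHIF2 cultures, 1 point per culture, a value of 0 being drawn at the left edge. The genes were picked among those whose 3 Ad-hHIF2 cultures all lay on 1 side of the controls, and Angptl4 stood at 1215 to 1342 CPM against 143 to 162 CPM.

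The promoters of the leading rises were read from RefSeq (GRCm38.p6) to see whether they hold the core of a hypoxia response element. Windows ran from 250 bases before to 50 bases after each start, and ACGTG and GCGTG were searched on both strands; ACGTG is also part of the E-box CACGTG, which other factors bind. Of the 15 leading rises, 11 had a promoter in the table, with 16 windows, of which 8 held a core. The stretches up to 1 RefSeq start per gene are shown for 3 of the leading rises with a core, for Egln3 and Egln1, which are described next and changed in opposite directions, and for Rrp9 and Nme1, which fell. Some of these starts, such as those of Galnt9 and Pde2a, lie inside the annotated gene, and which start the organoids used was not tested. Capitals mark the core, or the whole E-box in Nme1, and CACGC is GCGTG read on the other strand.
Pthlh chr6:147264014-147264113, minus strand: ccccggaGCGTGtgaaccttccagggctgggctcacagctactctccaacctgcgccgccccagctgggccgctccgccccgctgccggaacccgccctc
Galnt9 chr5:110603355-110603504, plus strand: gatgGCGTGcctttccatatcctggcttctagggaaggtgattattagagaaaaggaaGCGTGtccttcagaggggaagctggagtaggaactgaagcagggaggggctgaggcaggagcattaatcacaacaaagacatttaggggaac
Pde2a chr7:101421631-101421690, plus strand: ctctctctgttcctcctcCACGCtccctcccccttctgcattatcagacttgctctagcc
Egln3 chr12:54203875-54204114, minus strand: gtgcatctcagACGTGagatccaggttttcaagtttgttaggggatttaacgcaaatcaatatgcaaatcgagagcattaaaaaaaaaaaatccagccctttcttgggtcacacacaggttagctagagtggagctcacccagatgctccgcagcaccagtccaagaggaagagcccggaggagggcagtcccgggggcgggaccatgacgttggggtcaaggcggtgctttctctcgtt
Egln1 chr8:124949255-124949394, minus strand: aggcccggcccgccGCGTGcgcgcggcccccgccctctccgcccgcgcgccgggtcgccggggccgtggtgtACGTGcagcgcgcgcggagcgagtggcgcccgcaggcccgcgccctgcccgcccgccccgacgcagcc
Rrp9 chr9:106477159-106477308, plus strand: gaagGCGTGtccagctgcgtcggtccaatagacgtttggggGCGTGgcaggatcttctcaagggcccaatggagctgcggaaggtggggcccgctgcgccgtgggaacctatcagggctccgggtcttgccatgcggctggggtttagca
Nme1 chr11:93968273-93968332, minus strand: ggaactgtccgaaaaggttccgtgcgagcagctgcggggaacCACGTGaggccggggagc

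The core was found in 55.8% of 382 windows of the coding genes called higher (292 of 406 genes had a window) and in 53.2% of 310 windows of those called lower, against 62.1% of 12119 windows of coding genes tested and 43.8% of all 32851 windows. Genes called higher by at least 4-fold held it in 51.7% of windows. By contrast it was in 80.4% of 46 windows of ribosome biogenesis genes and 77.8% of 36 windows of glycolysis genes, groups in which most changed members fell. The windows of genes called higher had a median GC content of 61% and those of genes called lower 57.8%, against 60.7% over coding genes tested. A match is a description of these letters in this window and shows no binding, and a window without one says nothing of elements elsewhere.

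Of 9 tested HIF subunits and oxygen-sensing hydroxylases 4 rose, Epas1 among them, and 1 fell, with a median log2 fold change of 0.37. Egln3, which encodes the hypoxia-inducible hydroxylase PHD3, was at 53.8, 56.6 and 59.4 CPM in the Ad-GFP organoids and 149, 152 and 163 CPM in the Ad-hHIF2 organoids (log2 fold change 1.45, standard error 0.0766, adjusted p = 5.09e-06, edgeR). Egln1, which encodes PHD2, the main oxygen sensor, was at 162, 155 and 97.4 CPM in the Ad-GFP organoids and 76.2, 74.5 and 56.9 CPM in the Ad-hHIF2 organoids (log2 fold change -0.996, standard error 0.192, adjusted p = 0.00545, edgeR). The groups did not overlap for either gene, and the cores in their promoters are shown above. Hif1an, which encodes the asparaginyl hydroxylase FIH, rose (0.55), and Vhl did not pass the test (9.10 to 11.8 CPM, adjusted p = 0.0671, edgeR). Of 10 tested genes that link hypoxia to mitochondria and mTOR, 3 rose and 3 fell. Fam162a fell from 124 ± 5.34 to 58.1 ± 6.86 CPM, Higd1a, a respiratory chain assembly protein, from 52.6 ± 4.28 to 20.2 ± 1.10 CPM and Ddit4, the mTOR inhibitor REDD1, from 50.4 ± 4.90 to 20.5 ± 1.77 CPM, with log2 fold changes of -1.09, -1.38 and -1.30 and adjusted p-values of 9.41e-05, 1.19e-05 and 3.64e-05 (edgeR). Sesn2, another brake on mTOR, rose from 24.2 ± 0.735 to 58.97 ± 5.11 CPM and Mxi1, an antagonist of Myc, from 86.9 ± 6.12 to 143 ± 16.99 CPM. The mitophagy receptor Bnip3 was at 342, 398 and 363 CPM against 324, 346 and 320.4 and its groups overlapped.

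Glycolytic genes, which are classic targets of HIF1, included more falls than rises. Of 24 tested genes of glycolysis and lactate, 14 fell and 2 rose against 13.3% and 18.6% of all coding genes, with a median log2 fold change of -0.51, which shrank to -0.007 on log2(TPM + 1), where 0 members fell and 0 rose; relative to the median of all genes the 2 values were -0.496 and -0.13. The glucose transporter Slc2a1 was at 298, 294 and 310.2 CPM in the Ad-GFP organoids and 170.2, 173 and 183 CPM in the Ad-hHIF2 organoids (log2 fold change -0.78, standard error 0.0739, adjusted p = 0.000141, edgeR). Eno1, the main enolase, was at 978, 958 and 694 CPM in the Ad-GFP organoids and 579, 553 and 462 CPM in the Ad-hHIF2 organoids (log2 fold change -0.72, standard error 0.146, adjusted p = 0.00693, edgeR). The 3 HIF2 cultures lay below all 3 controls for both genes. Gapdh (-0.57), Pgam1 (-0.64), Hk2 (-0.47) and the pyruvate dehydrogenase kinases Pdk1 (-0.65), Pdk3 (-1.04) and Pdk4 (-1.13) also fell. The 2 largest falls of the list were at low level, the neuronal-type glucose transporter Slc2a3 (from 1.27 ± 0.560 to 0.370 ± 0.168 CPM) and the neuronal enolase Eno2 (from 3.63 ± 0.739 to 1.63 ± 0.155 CPM). Slc2a3 did not pass the test without Ad-hHIF2 replicate 1 (adjusted p = 0.117, edgeR). Lactate dehydrogenase, Ldha, was at 829, 827 and 707 CPM against 816, 946 and 848 and Pgk1 at 608, 519.9 and 548 CPM against 489.5, 556 and 465, and neither passed the test (adjusted p = 0.313 and 0.297, edgeR), both groups overlapping. The rises were Pfkm (0.45) and Gpi1 (0.39). Genes of glycogen metabolism split: of 14 tested, 7 rose (3 to 5 when each library was left out in turn) and 4 fell. The phosphatase targeting subunits Ppp1r3c (2.66) and Ppp1r3b (0.68) and Ugp2, which makes UDP-glucose (0.66), rose, while glycogen synthase Gys1 went from 99.9 ± 2.35 to 49.7 ± 2.75 CPM (-1.01) and the phosphorylase Pygl fell by 0.999 on the log2 scale. Among 23 genes of the citric acid cycle 5 rose, among them the anaplerotic carboxylase Pcx (from 15.1 to 30.8 CPM), and 1 fell.

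**Figure D3:**
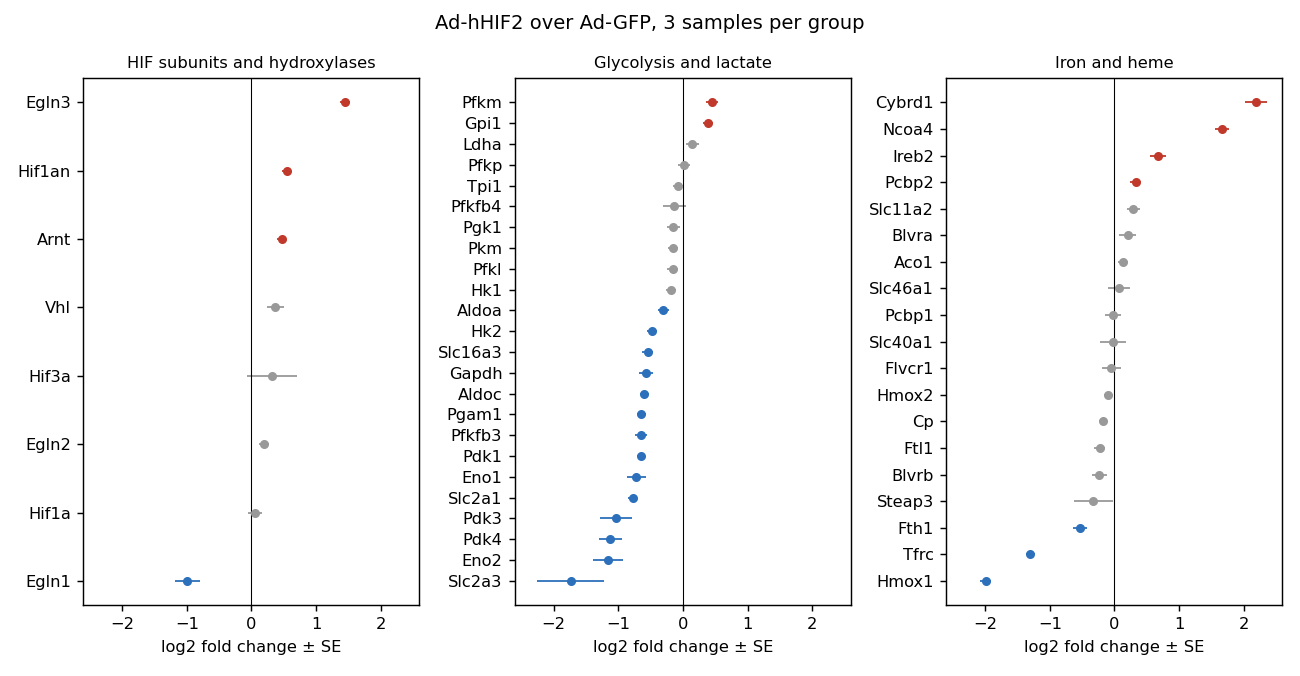
Log2 fold change (Ad-hHIF2 over Ad-GFP, edgeR, bars show the standard error) of the tested genes of oxygen sensing without Epas1, of glycolysis and of iron and heme, in red or blue where the adjusted p was below 0.05 and grey otherwise. Egln3 (1.45), Cybrd1 (2.19) and Ncoa4 (1.67) lay to the right and Egln1 (-0.996), Tfrc (-1.30) and Hmox1 (-1.99) to the left.

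Iron genes, the best known intestinal targets of HIF2, changed at a few members. Of 19 tested genes of iron and heme, 4 rose and 3 fell, close to the background, and the median log2 fold change was -0.026. Cybrd1, the duodenal ferric reductase, was at 2.02, 2.68 and 3.21 CPM in the Ad-GFP organoids and 11.02, 11.7 and 12.9 CPM in the Ad-hHIF2 organoids (log2 fold change 2.19, standard error 0.171, adjusted p = 4.55e-05, edgeR). Ncoa4, the receptor that delivers ferritin to lysosomes, was at 113, 141 and 111 CPM in the Ad-GFP organoids and 390.4, 405 and 363 CPM in the Ad-hHIF2 organoids (log2 fold change 1.67, standard error 0.109, adjusted p = 1.76e-05, edgeR). Neither gene overlapped between the groups. Slc11a2, the apical iron transporter DMT1, was at 18.6, 21.4 and 17.6 CPM against 25.97, 21.8 and 22.9 (log2 fold change 0.29, adjusted p = 0.0604, edgeR), all HIF2 cultures being above all controls, and the exporter ferroportin, Slc40a1, was at 7.01, 8.62 and 12.5 CPM against 8.19, 8.97 and 10.2, with overlapping groups. The transferrin receptor Tfrc fell from 64.2 ± 2.25 to 26.04 ± 0.969 CPM (log2 fold change -1.30, standard error 0.0672, adjusted p = 4.62e-06, edgeR) and ferritin heavy chain, Fth1, by 0.53 on the log2 scale, while Ireb2, which encodes an iron regulatory protein, rose (0.67). The heme-degrading enzyme Hmox1 was at 346, 339 and 318 CPM in the Ad-GFP organoids and 91.2, 81.4 and 79.05 CPM in the Ad-hHIF2 organoids (log2 fold change -1.99, standard error 0.0872, adjusted p = 1.66e-06, edgeR). Among 18 tested carriers of other metals 10 rose and 4 fell. The zinc exporter Slc30a1 went from 3.67 ± 0.672 to 10.1 ± 1.06 CPM and the importers Slc39a10 and Slc39a13 from 14.4 to 29.2 CPM and 27.3 to 55.1 CPM, whereas the metallothioneins Mt1 (210.2 ± 41.1 to 80.8 ± 12.1 CPM) and Mt2 (27.5 ± 1.95 to 12.9 ± 1.37 CPM), which bind zinc and copper, fell. Slc31a2, a copper transporter, rose from 3.97 ± 0.776 to 8.23 ± 0.873 CPM. Of 33 antioxidant genes and NRF2 targets 13 fell and 8 rose, with a median of -0.21 that turned to 0.028 with library totals and 0.15 on log2(TPM + 1). The falls held the glutathione synthesis gene Gclc (-1.52), Srxn1 (-1.06), thioredoxin reductase Txnrd1 (-0.63) and the glutathione peroxidase Gpx4 (-0.65). Txnip, an inhibitor of thioredoxin and of glucose uptake, fell from 28.4 ± 1.85 to 12.1 ± 0.807 CPM. The rises held the selenium carrier Sepp1, at 312, 324 and 315 CPM against 1192, 1140 and 1173 (log2 fold change 1.88, standard error 0.0777, adjusted p = 1.26e-06, edgeR), Prdx2 (0.85) and transketolase, Tkt (0.80).

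Angiogenic and vasoactive genes included more rises than falls, and coagulation and complement genes had a median near 0. Of 20 tested angiogenic and vasoactive ligands and receptors 8 rose and 3 fell, the median log2 fold change being 0.35, and its distance to the median of all genes was between 0.37 and 0.42 with TMM, median-ratio factors, library totals and both TPM scales. Besides Edn2, Angptl4 and Apln, placental growth factor, Pgf, was at 118, 113 and 123 CPM in the Ad-GFP organoids and 430.2, 441 and 424 CPM in the Ad-hHIF2 organoids (log2 fold change 1.87, standard error 0.0768, adjusted p = 1.26e-06, edgeR), and adrenomedullin, Adm, a vasodilator peptide, at 73.5, 74.6 and 74.9 CPM in the Ad-GFP organoids and 183, 177 and 172 CPM in the Ad-hHIF2 organoids (log2 fold change 1.25, standard error 0.0690, adjusted p = 6.39e-06, edgeR). Both were higher in every HIF2 culture. Vegfa itself was at 929.9, 859 and 868 CPM in the Ad-GFP organoids and 1058, 1016 and 1030 CPM in the Ad-hHIF2 organoids (log2 fold change 0.22, adjusted p = 0.0625, edgeR), above the controls in all 3 cultures but short of the threshold. Endothelin 1, Edn1, fell from 2.95 ± 0.228 to 1.31 ± 0.269 CPM, opposite to Edn2. In the list of 20 coagulation and complement genes 5 rose and 1 fell, with a median log2 fold change of 0.023, close to that of all genes. The rises included, all of the clotting and fibrinolysis arm, tissue plasminogen activator Plat (from 121 ± 8.59 to 329 ± 16.2 CPM), tissue factor F3 (from 105 ± 4.52 to 249 ± 12.03 CPM), thrombomodulin Thbd (from 98.6 ± 3.10 to 208 ± 5.81 CPM) and the tissue factor inhibitor Tfpi (from 0.883 ± 0.378 to 2.33 ± 0.418 CPM). Outside that list the urokinase receptor Plaur fell from 61.95 ± 7.57 to 30.8 ± 2.54 CPM. In prostaglandin metabolism the synthases diverged. Ptgs1, which encodes COX-1, rose from 12.6 ± 1.89 to 25.9 ± 1.41 CPM, while Ptgs2, which encodes COX-2, was at 172, 176 and 177 CPM in the Ad-GFP organoids and 61.6, 58.9 and 56.1 CPM in the Ad-hHIF2 organoids (log2 fold change -1.57, standard error 0.0726, adjusted p = 2.37e-06, edgeR), lower in every HIF2 culture. The cytosolic phospholipase Pla2g4a, which releases arachidonic acid, fell (-0.77), and the list held 6 rises and 3 falls of 14 tested. The arachidonate lipoxygenase Alox12 rose from 0.0741 ± 0.105 to 1.44 ± 0.233 CPM and the prostaglandin E synthase Ptges from 47.1 ± 4.91 to 188 ± 1.61 CPM. Of 15 tested genes of adenosine production and clearance 3 rose and 4 fell, with a median of -0.13 that turned to 0.13 with library totals and 0.13 on log2(TPM + 1). The AMP deaminase Ampd3 (from 3.83 to 14.5 CPM) and the ectoenzymes Entpd3 and Enpp1 (from 0.599 to 2.08 CPM and 28.2 to 59.7 CPM) rose, and the equilibrative transporters Slc29a1 and Slc29a2 fell (-0.91 and -1.07). The adenosine receptor Adora1 fell from 0.677 ± 0.128 to 0.213 ± 0.0728 CPM (adjusted p = 0.0281, edgeR), a call lost when any of the 6 libraries was left out.

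More cytokine receptors rose than fell, and more chemokines fell than rose. Of 21 tested cytokine receptors 12 rose (7 to 11 when each library was left out in turn) and 2 fell, with a median log2 fold change of 0.37 (0.39 relative to all genes, and 0.20 on log2(TPM + 1)). The shared chain of the IL-4 and IL-13 receptors, Il13ra1, was at 7.84, 8.12 and 6.09 CPM in the Ad-GFP organoids and 25.9, 26.7 and 29.2 CPM in the Ad-hHIF2 organoids (log2 fold change 1.88, standard error 0.117, adjusted p = 1.36e-05, edgeR), and the decoy receptor Il13ra2 at 0.690, 0.918 and 0.507 CPM in the Ad-GFP organoids and 5.23, 5.35 and 4.77 CPM in the Ad-hHIF2 organoids (log2 fold change 2.82, standard error 0.246, adjusted p = 8.89e-05, edgeR). Csf1r, the receptor of macrophage colony-stimulating factor, rose from 1.18 ± 0.824 to 3.42 ± 0.809 CPM, with an adjusted p of 0.0475 (edgeR). It did not pass the test without Ad-hHIF2 replicate 4 (adjusted p = 0.144, edgeR). Among receptors of the IL-6 family, Lifr (1.20), Il6ra (0.89), the common chain Il6st (0.69) and Osmr (0.51) rose, though Osmr did not pass the test without Ad-GFP replicate 3. Ifngr1 fell (-0.69), whereas its partner Ifngr2 rose (0.72). Among 14 tested chemokines and colony-stimulating factors 8 fell and 2 rose, and 2 fell on log2(TPM + 1), where the median was -0.019 in place of -0.53. Csf2, which encodes GM-CSF, was at 11.5, 9.85 and 13.8 CPM in the Ad-GFP organoids and 2.62, 2.42 and 2.80 CPM in the Ad-hHIF2 organoids (log2 fold change -2.17, standard error 0.158, adjusted p = 3.26e-05, edgeR), and the chemokines Ccl9 (-2.01) and Cxcl1 (-0.42) and the CCR6 ligand Ccl20 (-1.06) fell by less. The monocyte chemokine Ccl2 fell from 0.706 ± 0.311 to 0.210 ± 0.0432 CPM (log2 fold change -1.70, adjusted p = 0.0344, edgeR), at a level below 1 CPM. The 2 rises were the membrane-bound chemokines Cx3cl1 (from 23.2 ± 2.99 to 64.04 ± 5.37 CPM) and Cxcl16 (from 21.8 ± 1.06 to 28.4 ± 1.68 CPM). The TNF-family ligand Tnfsf15 rose from 0.515 ± 0.189 to 2.19 ± 0.210 CPM and the IL-1 receptor antagonist Il1rn fell from 31.5 ± 0.993 to 15.2 ± 0.936 CPM. Interferon-stimulated genes stayed near the background, with 4 rises and 2 falls among 28, and NF-κB targets gave 5 and 4 of 22, Nfkb1 rising (0.60) and the inhibitor Tnfaip3 falling (-0.76). The interferon-stimulated genes Usp18 and Oas3 fell from 1.498 ± 0.614 to 0.392 ± 0.145 CPM and 1.17 ± 0.247 to 0.364 ± 0.182 CPM, the values of Usp18 following the order of the background, and the lipopolysaccharide coreceptor Cd14 from 7.92 ± 1.90 to 3.41 ± 0.590 CPM.

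In the EGF family list 7 of 17 tested members rose and 1 fell. Of the genes named next, Met, Axl and Errfi1 are not EGF family ligands or receptors, and the count is that of the list as written. The hepatocyte growth factor receptor Met was at 75.6, 77.9 and 82.2 CPM in the Ad-GFP organoids and 177, 174 and 176 CPM in the Ad-hHIF2 organoids (log2 fold change 1.16, standard error 0.0709, adjusted p = 1.22e-05, edgeR), and Errfi1, a feedback inhibitor of EGFR, at 131, 132 and 143 CPM in the Ad-GFP organoids and 272, 241 and 261 CPM in the Ad-hHIF2 organoids (log2 fold change 0.93, standard error 0.0812, adjusted p = 8.66e-05, edgeR). The groups did not overlap for either gene. Epiregulin, Ereg (0.73), and the receptor kinase Axl (0.63) rose by less. The EGFR ligand Tgfa rose from 30.3 ± 5.80 to 83.2 ± 3.46 CPM. Of 16 tested genes of FGF signalling and ERK feedback 5 rose and 2 fell, with a median of 0.074. Not all of the FGF and feedback genes named next belong to this list. At low levels Fgf5 went from 0.212 to 2.64 CPM, Fgf18 from 1.44 to 5.97 CPM and Fgf11 from 4.30 to 6.93 CPM, all passing the test, and Fgf21 fell from 1.11 to 0.0549 CPM. Among feedback genes Spry4 (0.98), Dusp6 (0.80) and Spry2 (0.62) rose. Fgf1 rose from 1.34 ± 0.421 to 12.2 ± 1.98 CPM and the FGF-binding protein Fgfbp1 fell from 7.86 ± 1.57 to 2.81 ± 0.621 CPM, in the order of the background. In the insulin and IGF list 10 of 25 members rose and 2 fell; their median effective length, 4759 bases, lies in the longest class, where 30.2% of genes rose. Igfbp3, a secreted carrier that sequesters IGF, was at 196, 192 and 214 CPM in the Ad-GFP organoids and 1180, 1129 and 1165 CPM in the Ad-hHIF2 organoids (log2 fold change 2.53, standard error 0.0854, adjusted p = 4.81e-07, edgeR), a gain in every HIF2 culture, and Igfbp7 fell from 153 ± 10.3 to 73.2 ± 4.10 CPM. The IGF-II receptor Igf2r (0.73), Tsc2 (0.42) and Mtor (0.48) rose by small steps. The transcription factor Foxo1, which insulin signalling restrains, rose from 25.5 ± 2.31 to 54.7 ± 4.77 CPM.

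Among genes of the basement membrane and its receptors rises outnumbered falls. Of 18 tested laminin and basement membrane genes 12 rose and 0 fell; the median log2 fold change was 0.40, 0.66 with library totals and 0.57 on log2(TPM + 1), and it lay above the median of all genes by 0.41 to 0.48 with TMM, median-ratio factors, library totals and both TPM scales. Their median effective length, 4828 bases, lies in the longest class of coding genes, where 30.2% of genes rose. Lamb1, the laminin β1 chain, was at 204, 198 and 189.7 CPM in the Ad-GFP organoids and 823, 841 and 809 CPM in the Ad-hHIF2 organoids (log2 fold change 2.06, standard error 0.0786, adjusted p = 7.57e-07, edgeR), and Lama3, a chain of laminin-332, at 25.5, 23.5 and 25.1 CPM in the Ad-GFP organoids and 72.4, 73.9 and 72.6 CPM in the Ad-hHIF2 organoids (log2 fold change 1.56, standard error 0.0672, adjusted p = 1.46e-06, edgeR). Both rose in each HIF2 culture above each control. The linker nidogen, Nid1, went from 104 ± 3.84 to 234 ± 17.7 CPM and perlecan, Hspg2, from 128 ± 7.10 to 210.4 ± 13.1 CPM, and Lama5 rose by 0.31 on the log2 scale. The other nidogen, Nid2, rose from 0.828 ± 0.166 to 2.43 ± 0.517 CPM. Among 15 integrins, which also lie in the longest class (median 4073 bases), 7 rose and 1 fell, with the fibronectin receptor subunit Itga5 (0.84), Itgav (0.54) and the laminin receptor subunits Itga6 (0.34) and Itgb4 (0.47) higher and Itgb7 (-1.60) lower. The list does not hold all integrins, since 1 of 9 tested genes with the stem Itga was also called lower. The laminin receptor subunit Itga7 rose from 2.24 ± 0.648 to 4.95 ± 0.143 CPM. Among 17 cadherin and desmosome genes 8 rose and 1 fell. Cdh17 was at 111, 115 and 132 CPM in the Ad-GFP organoids and 335, 311 and 319.5 CPM in the Ad-hHIF2 organoids (log2 fold change 1.43, standard error 0.0896, adjusted p = 1.36e-05, edgeR), E-cadherin, Cdh1, at 228, 227 and 207 CPM against 353, 307 and 299 and the catenins Ctnnd1 and Ctnnb1 at means of 152 to 381 CPM and 419.5 to 669 CPM, each higher in Ad-hHIF2 organoids and with no overlap. Cdhr1 and Cdh13, a GPI-anchored cadherin, rose from 0.358 ± 0.0542 to 1.47 ± 0.0964 CPM and 46.4 ± 4.71 to 106 ± 6.39 CPM. Of 16 tested genes of collagen modification 7 rose and 2 fell, with a median of 0.27. The crosslinking oxidase Loxl2 rose from 71.5 ± 3.77 to 175 ± 3.17 CPM and the prolyl hydroxylase subunits went opposite ways, P4ha1 rising (0.40) and P4ha2 falling (-1.03). In the list of ADAM and metalloproteinase genes 9 of 23 members rose and 2 fell. Its median was 0.21 relative to all genes with TMM and -0.047 on log2(TPM + 1). The largest rise in that list was Tmprss2, a serine protease of the epithelial surface and not a metalloproteinase, from 13.6 ± 0.506 to 48.3 ± 1.82 CPM. Beyond the genes the study names, the membrane-type metalloproteinase Mmp14 rose from 34.9 ± 1.62 to 68.2 ± 2.53 CPM, and Adam12 fell from 3.66 ± 0.362 to 1.22 ± 0.245 CPM. The sheddase Adam10 rose from 32.3 ± 2.32 to 86.4 ± 8.21 CPM. In glycan synthesis 10 of 26 members rose and 4 fell: next to Galnt9, the branching enzyme Gcnt1 was at 55.7, 57.4 and 52.7 CPM in the Ad-GFP organoids and 194, 189 and 181 CPM in the Ad-hHIF2 organoids (log2 fold change 1.77, standard error 0.0743, adjusted p = 1.28e-06, edgeR), B4galt5 rose from 15.6 ± 0.657 to 44.2 ± 1.79 CPM and C1galt1, which extends O-glycans, from 15.02 ± 0.963 to 27.9 ± 1.66 CPM, whereas the secreted mucin Muc2 fell from 5.92 ± 1.51 to 1.73 ± 0.275 CPM. The transmembrane mucin Muc4 fell from 1.07 ± 0.156 to 0.262 ± 0.143 CPM.

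Among lysosomal genes rises outnumbered falls, by small steps. Of 45 tested genes of the lysosome and its proton pump 23 rose and 2 fell, against 18.6% and 13.3% of coding genes, with a median log2 fold change of 0.34, 0.60 with library totals and 0.52 on log2(TPM + 1), where 6 rose. The median effective length was 1756 bases, in the class next to the shortest, where the median of all coding genes was -0.004. Cathepsin D, Ctsd, was at 288, 277 and 263 CPM in the Ad-GFP organoids and 474, 494 and 461 CPM in the Ad-hHIF2 organoids (log2 fold change 0.79, standard error 0.0782, adjusted p = 0.000179, edgeR), and Npc1, which moves cholesterol out of lysosomes, at 40.7, 42.4 and 49.2 CPM in the Ad-GFP organoids and 77.6, 74.4 and 72.7 CPM in the Ad-hHIF2 organoids (log2 fold change 0.76, standard error 0.0862, adjusted p = 0.000353, edgeR). The saposin precursor Psap was at 297, 278 and 272 CPM in the Ad-GFP organoids and 452, 459 and 442 CPM in the Ad-hHIF2 organoids (log2 fold change 0.68, standard error 0.0763, adjusted p = 0.000351, edgeR). All 3 were higher in every HIF2 culture. Of the proton pump, Atp6ap2 (0.65), Atp6v0d1 (0.57), Atp6v1d (0.53) and Atp6v1a (0.499) rose. The lysosomal cystine exporter Ctns rose from 6.95 ± 0.791 to 14.1 ± 0.871 CPM. Among 32 autophagy genes 9 rose, such as Wipi1 (0.63), Nbr1 (0.47) and Rb1cc1 (0.45), and 3 fell, among them the cargo receptor Sqstm1, from 502 ± 36.1 to 325 ± 17.7 CPM. Sphingolipid genes gave 11 rises and 4 falls of 32, with a median of 0.27. Spns2, which exports sphingosine 1-phosphate, was at 14.2, 14.5 and 13.8 CPM in the Ad-GFP organoids and 79.2, 72.7 and 75.9 CPM in the Ad-hHIF2 organoids (log2 fold change 2.42, standard error 0.0701, adjusted p = 3.34e-07, edgeR), and the S1P phosphatase Sgpp1 and ceramide kinase Cerk rose from 11.7 ± 1.12 to 30.1 ± 2.96 CPM and 5.39 ± 0.150 to 14.2 ± 1.93 CPM. Spns3, a relative of Spns2, rose from 0.504 ± 0.453 to 1.91 ± 0.512 CPM, with an adjusted p of 0.0431 (edgeR). In lipid catabolism 12 of 32 genes rose and 5 fell. The rises included the β-oxidation enzymes Acadm (0.40), Acadl (0.36) and Hadha (0.35) and the carnitine palmitoyltransferases Cpt1a (0.45) and Cpt2 (0.69), while the lipid droplet coat Plin2, a known hypoxia-responsive gene, fell from 631 ± 38.8 to 411 ± 13.4 CPM, the peroxisomal oxidase Acox2 from 4.27 ± 1.71 to 1.06 ± 0.270 CPM and the coactivator Ppargc1a from 7.72 ± 0.681 to 2.88 ± 0.363 CPM. Lipoprotein lipase itself, Lpl, fell from 30.8 ± 11.8 to 7.21 ± 4.11 CPM, opposite to its inhibitor Angptl4; its expected counts were not whole numbers (within 0.005 of one) in all libraries, and its 6 values followed the order of the background counts. Of 22 tested ABC transporters 7 rose and 5 fell, with a median of 0.10. The cholesterol exporter Abca1 went from 4.12 ± 0.927 to 24.3 ± 1.96 CPM (log2 fold change 2.55, standard error 0.157, adjusted p = 1.26e-05, edgeR), and Abcc3 rose (1.05) while the drug exporters Abcb1a and Abcb1b fell (-0.97 and -1.12). Abcg1, another sterol exporter, rose from 0.272 ± 0.165 to 0.839 ± 0.208 CPM (adjusted p = 0.0416, edgeR), a call lost when any of 5 of the 6 libraries was left out.

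Among the lists of coding genes described here, the clearest group of falls was the machinery that builds ribosomes. Of 47 tested ribosome biogenesis genes 36 fell and 0 rose, against 13.3% and 18.6% of coding genes. The median log2 fold change was -0.66 with TMM, -0.40 with library totals, where 18 fell, -0.099 on log2(TPM + 1) and -0.16 on log2(TPM + 0.1), where 0 and 0 fell; it lay below the median of all genes by 0.64, 0.65, 0.22 and 0.46 in turn. The median level of its members on the log2 scale, relative to the mean of the controls, was 0.049, 0.038 and -0.11 in the Ad-GFP organoids and -0.67, -0.61 and -0.66 in the Ad-hHIF2 organoids, so that the groups stood apart and the cultures of each lay close together. Rrp9, which processes pre-rRNA, was at 15.7, 14.5 and 15.9 CPM in the Ad-GFP organoids and 5.76, 6.35 and 6.35 CPM in the Ad-hHIF2 organoids (log2 fold change -1.32, standard error 0.0990, adjusted p = 3.66e-05, edgeR). Nop56, a core protein of the box C/D snoRNPs, was at 126, 118 and 98.8 CPM in the Ad-GFP organoids and 58.4, 54.9 and 48.9 CPM in the Ad-hHIF2 organoids (log2 fold change -1.08, standard error 0.108, adjusted p = 0.000193, edgeR). Npm1, the abundant nucleolar chaperone, was at 1030, 1081 and 1067 CPM in the Ad-GFP organoids and 666, 653 and 614 CPM in the Ad-hHIF2 organoids (log2 fold change -0.72, standard error 0.0792, adjusted p = 0.000314, edgeR). For each of the 3 genes every HIF2 culture was below every control. The pseudouridine synthase Dkc1 (-1.02) and its partner Nhp2 (-1.14), nucleolin, Ncl (-0.66), and the RNA polymerase I subunits Polr1a (-0.61) and Polr1b (-0.72) also fell. Rrp12, which helps to export ribosomal subunits from the nucleus, fell from 10.3 ± 1.05 to 4.24 ± 0.300 CPM. The median effective length of the ribosome biogenesis genes, 1907 bases, lies in a class of coding genes whose median was -0.004. Myc, a transcription factor known to promote ribosome production, was at 149.5, 144 and 149.7 CPM in the Ad-GFP organoids and 70.1, 57.7 and 70.6 CPM in the Ad-hHIF2 organoids (log2 fold change -1.16, standard error 0.0931, adjusted p = 5.32e-05, edgeR).

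Ribosomal proteins, their mitochondrial counterparts, import factors, nucleotide synthesis and chaperones changed by smaller steps. Of 73 cytosolic ribosomal protein genes 55 fell and 0 rose, with a median of -0.45, which was -0.23 with library totals and -0.024 on log2(TPM + 1), where 6 and 0 fell; relative to all genes the TMM and TPM values were -0.44 and -0.15. These messages are short (median effective length 561 bases), and ribosomal protein genes share sequence with many processed pseudogenes, so that their expected counts can be split. The largest fall among them was that of Rpl34, from 611 ± 93.2 to 245 ± 44.7 CPM. Equally short messages of the respiratory chain stayed nearer to all genes: of 37 complex I genes (median 598 bases) 6 fell and 1 rose with a median of -0.035, and of 39 genes of complexes II to V 7 fell and 1 rose with a median of -0.11, both medians being above 0 with library totals and on the TPM scales, and that of complex I also without Ad-hHIF2 replicate 1. Mitochondrial ribosomal proteins gave 19 falls (8 to 19 when each library was left out in turn) and 0 rises of 51 (median -0.20, turning to 0.046 with library totals and 0.14 on log2(TPM + 1)), and mitochondrial import genes 15 and 1 of 26 (median -0.33, turning to 0.073 on log2(TPM + 1)). Tomm5, a subunit of the outer membrane import pore, was at 58.7, 52.6 and 55.6 CPM in the Ad-GFP organoids and 21.1, 23.7 and 22.99 CPM in the Ad-hHIF2 organoids (log2 fold change -1.30, standard error 0.0771, adjusted p = 1.05e-05, edgeR), Tomm20, its receptor, at 245, 247 and 233 CPM against 130.4, 147 and 147 and the matrix chaperonin pair Hspd1 and Hspe1 fell from 128 ± 3.85 to 67.5 ± 4.31 CPM and 103 ± 0.397 to 54.9 ± 4.10 CPM. The intermembrane chaperone Timm10 fell from 7.74 ± 1.59 to 3.79 ± 0.243 CPM. In nucleotide synthesis 18 of 30 genes fell and 3 rose (median -0.37, turning to 0.066 on log2(TPM + 1)). Nme1, a nucleoside diphosphate kinase, was at 21.5, 18.4 and 15.7 CPM in the Ad-GFP organoids and 7.21, 7.96 and 7.28 CPM in the Ad-hHIF2 organoids (log2 fold change -1.31, standard error 0.127, adjusted p = 0.000153, edgeR), and the falls ran through purine synthesis (Gart -0.71 and Atic -0.69), pyrimidine synthesis (Cad -0.57 and Ctps -0.58) and the shared precursor enzyme Prps1 (-0.93). The deaminase Dctd, which supplies dUMP, fell from 13.2 ± 2.24 to 5.60 ± 0.686 CPM. Of 27 tested genes of arginine, polyamine and one-carbon metabolism 9 fell and 4 rose, with a median of -0.099 that turned to 0.18 with library totals, 0.10 on log2(TPM + 1), 0.008 without Ad-hHIF2 replicate 1 and 0.005 when blocks for the replicate numbers were fitted. Ornithine decarboxylase, Odc1, fell from 52.5 ± 4.13 to 26.7 ± 0.371 CPM and spermidine synthase, Srm, from 15.1 ± 1.19 to 5.70 ± 0.875 CPM, while the catabolic enzymes Sat1 (0.51) and Smox (0.53) rose. The folate enzymes Mthfd1l (-1.02) and Shmt1 (-1.02) fell. The inducible nitric oxide synthase Nos2, which uses arginine, rose from 5.84 ± 0.555 to 127 ± 0.912 CPM. Of 27 chaperonin and heat shock genes 19 fell and 1 rose (median -0.37, turning to 0.073 on log2(TPM + 1)), from the cytosolic chaperonin subunit Cct6a (-0.57) to the inducible Hspa1a and Hspa1b, which fell from 353 ± 51.7 to 133 ± 2.45 CPM and 652 ± 68.5 to 215 ± 4.05 CPM; the last 2 are near-identical copies whose split is uncertain. The small heat shock protein Hspb1 fell from 34.8 ± 3.60 to 12.9 ± 0.447 CPM. Translation factors gave 9 falls and 2 rises of 37 (median -0.064, turning to 0.31 on log2(TPM + 1)), with the aminoacyl-tRNA synthetase Mars among the rises (0.59). Eef1e1, a scaffold of the synthetase complex, fell from 18.5 ± 1.10 to 8.29 ± 1.14 CPM.

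**Figure D4:**
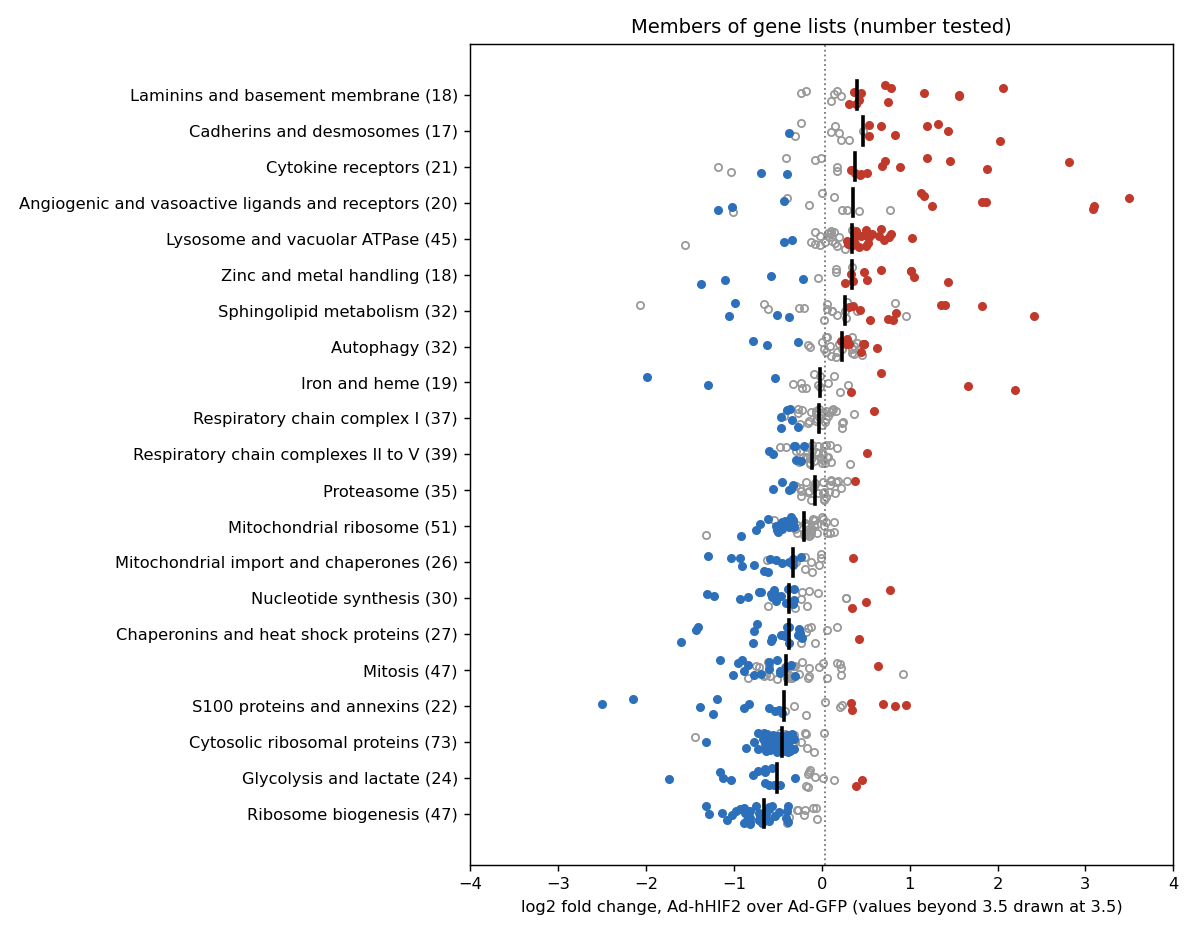
Log2 fold change (Ad-hHIF2 over Ad-GFP, edgeR) of the tested members of 21 gene lists, 1 point per gene, red for rises and blue for falls with an adjusted p below 0.05 and open grey for the rest, with a black bar at each list's median and a dotted line at the median of all coding genes (0.037). Laminins (12 rises, 0 falls of 18) and the lysosome (23 and 2 of 45) lay at the upper end and ribosome biogenesis (0 and 36 of 47) at the other; of the groups with a median below 0, only cytosolic ribosomal proteins, glycolysis and lactate and ribosome biogenesis kept it below 0 on log2(TPM + 1), while iron and heme, respiratory chain complex I, respiratory chain complexes II to V, proteasome, mitochondrial ribosome, mitochondrial import and chaperones, nucleotide synthesis, chaperonins and heat shock proteins, mitosis and S100 proteins and annexins turned above 0.

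**Figure D5:**
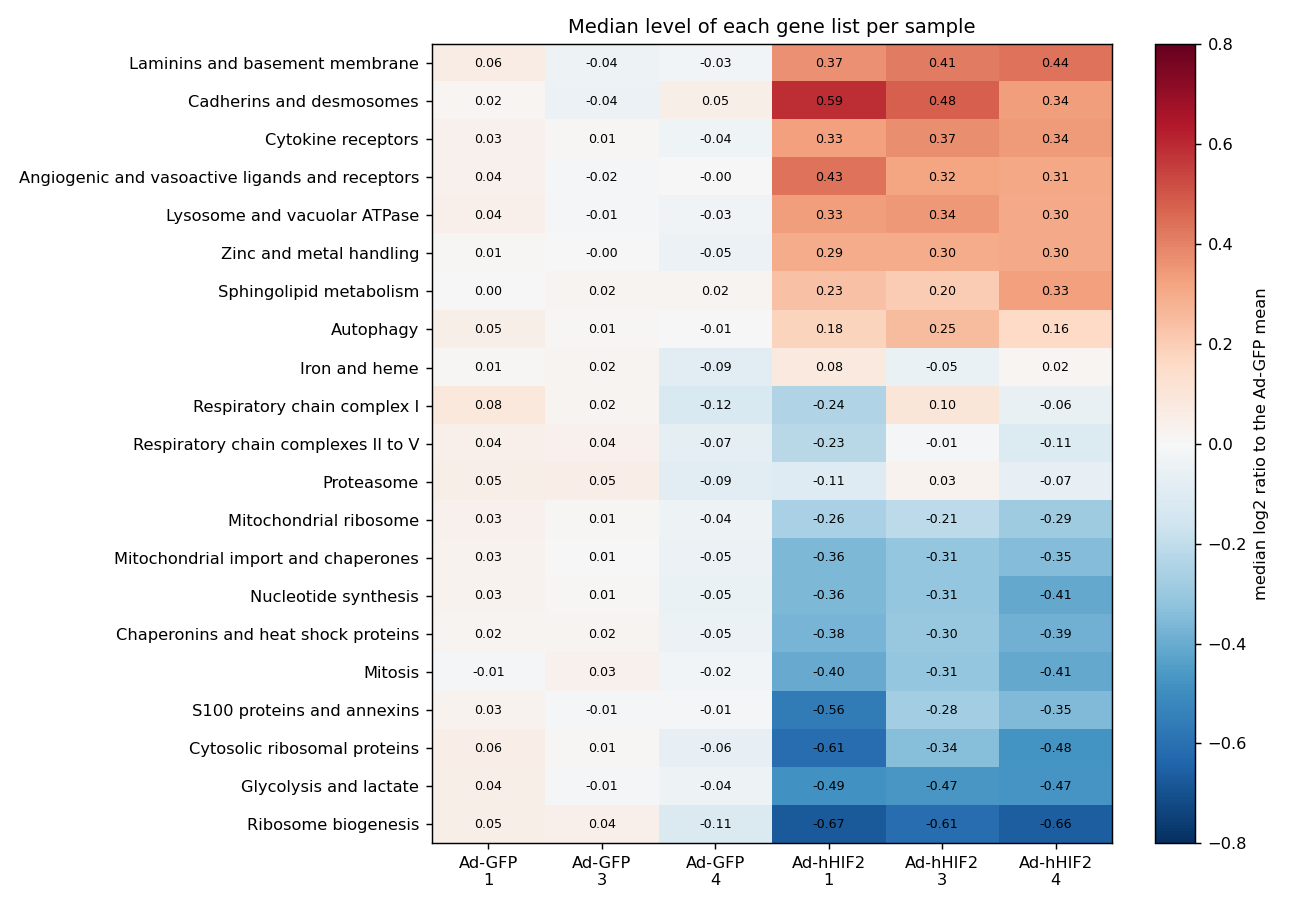
Median over the members of 21 gene lists of the log2 ratio of each culture to the mean of the 3 Ad-GFP cultures (CPM with TMM), as a heat map with its values in the cells. The Ad-hHIF2 cultures lay at -0.67 to -0.61 for ribosome biogenesis and at 0.30 to 0.34 for the lysosome, outside the range of the controls.

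Genes of cell division changed in part. Of 47 mitosis genes 16 fell and 1 rose, with a median of -0.40 that was -0.15 with library totals and 0.005 on log2(TPM + 1), and the falls were 7 to 13 when each library was left out in turn. Ube2c, which feeds the anaphase-promoting complex, went from 7.71 ± 0.986 to 3.44 ± 0.239 CPM (log2 fold change -1.16, standard error 0.149, adjusted p = 0.000725, edgeR), and Ccna2, cyclin A2, from 4.87 ± 1.5 to 2.39 ± 0.233 CPM (log2 fold change -1.02, standard error 0.244, adjusted p = 0.0147, edgeR). These levels were low in both groups, and the groups did not overlap. Of 44 replication genes 12 fell and 6 rose, with a median of -0.13 that turned to 0.13 with library totals and 0.095 on log2(TPM + 1). The nucleotide enzymes of S phase split: thymidylate synthase, Tyms, was at 51.7, 70.2 and 72.4 CPM in the Ad-GFP organoids and 22.9, 33.1 and 39.4 CPM in the Ad-hHIF2 organoids (log2 fold change -1.03, standard error 0.197, adjusted p = 0.0053, edgeR), its counts not being whole and its values following the order of the background, and Dut fell from 29.4 ± 0.589 to 11.4 ± 0.842 CPM, while the ribonucleotide reductase subunits Rrm2 (0.79) and Rrm1 (0.39) rose. The replication factor Mcm10 fell from 2.54 ± 0.615 to 1.26 ± 0.277 CPM. Cyclin D1, Ccnd1, was at 188, 182 and 171 CPM in the Ad-GFP organoids and 104, 98.3 and 95.8 CPM in the Ad-hHIF2 organoids (log2 fold change -0.86, standard error 0.0754, adjusted p = 8.98e-05, edgeR), lower in every HIF2 culture. The CDK inhibitors Cdkn1a (0.93) and Cdkn2c (1.53) rose and Cdkn2b (-0.81) fell, with 7 rises and 4 falls of 29 in the list of cyclins, CDKs and inhibitors. Cyclin D2, Ccnd2, rose from 132 ± 5.89 to 456 ± 27.8 CPM, opposite to Ccnd1.

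Stress responses moved in both directions. Of 18 immediate early genes 10 fell (6 to 10 when each library was left out in turn) and 5 rose; the median was -0.40, and it turned to 0.076 on log2(TPM + 1). Atf3 was at 77.02, 77.3 and 76.2 CPM in the Ad-GFP organoids and 30.2, 28.5 and 26.6 CPM in the Ad-hHIF2 organoids (log2 fold change -1.43, standard error 0.0720, adjusted p = 3.91e-06, edgeR), and Fos (-0.41), Fosb (-1.06) and Nr4a1 (-0.99) fell too. The largest fall of these was in Egr1, from 22.5 ± 3.66 to 4.48 ± 1.58 CPM. The rises were Ier3, from 80.3 ± 8.07 to 328 ± 16.9 CPM, the AP-1 members Fosl2, from 77.1 ± 5.40 to 163 ± 7.27 CPM, and Junb (0.66), the phosphatase Dusp1 (0.27) and Egr2, from 0.434 ± 0.383 to 3.0 ± 0.906 CPM. In the endoplasmic reticulum and amino acid stress list 12 of 37 genes fell and 5 rose, with a median of -0.056 that turned to 0.21 with library totals and 0.31 on log2(TPM + 1). The chaperone Hspa5, known as BiP, was at 2386, 2355 and 2178 CPM in the Ad-GFP organoids and 1364, 1475 and 1346 CPM in the Ad-hHIF2 organoids (log2 fold change -0.73, standard error 0.0864, adjusted p = 0.000475, edgeR), and Ddit3, known as CHOP, at 157, 157 and 153 CPM in the Ad-GFP organoids and 60.98, 57.6 and 53.5 CPM in the Ad-hHIF2 organoids (log2 fold change -1.44, standard error 0.0766, adjusted p = 5.19e-06, edgeR), both lower throughout. The oxidase Ero1l was at 551, 555 and 483 CPM in the Ad-GFP organoids and 1408, 1414 and 1334 CPM in the Ad-hHIF2 organoids (log2 fold change 1.39, standard error 0.0896, adjusted p = 1.64e-05, edgeR), higher throughout, and is a known hypoxia-responsive gene of the same compartment.

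The 15 largest falls by the same rule included Sv2c, S100a7a, Espn, Car6, Gabra2, Csf2, S100a14, Akap12, Rhox8, Lpl, Hmox1, Hist1h2ap, Caps2 and Jag1. Several of these are neuronal or germline genes at low level (Sv2c, Gabra2, Rhox8), and 8 of the 15 had expected counts that were not whole numbers within 0.005, where RSEM shared reads with other transcripts. Over all coding genes called lower, 174 of 349 had counts within 0.005 of a whole number in all 6 libraries (whole counts), and 260 stood at 10 or more times the background density of the silent receptors in the controls. The 6 values followed the exact order of the background share in 40 of 175 genes called lower without whole counts (22.9%), in 9 of 174 with whole counts (5.17%) and, as the matching background, in 162 of 2621 coding genes whose Ad-hHIF2 values all lay below the controls (6.18%), and among the 15 leading falls in, for example, Sv2c, Lpl and Jag1; the part of this background in the falls was not tested. Among falls with whole counts, Espn, an actin bundler of microvilli, was at 9.5, 8.29 and 11.3 CPM in the Ad-GFP organoids and 1.81, 1.78 and 1.65 CPM in the Ad-hHIF2 organoids (log2 fold change -2.46, standard error 0.164, adjusted p = 1.93e-05, edgeR). Car6, a secreted carbonic anhydrase, was at 12.1, 13.2 and 18.8 CPM in the Ad-GFP organoids and 3.37, 3.15 and 1.91 CPM in the Ad-hHIF2 organoids (log2 fold change -2.35, standard error 0.236, adjusted p = 0.000192, edgeR). Jag1, a Notch ligand, was at 119, 120.2 and 124 CPM in the Ad-GFP organoids and 34.5, 34.7 and 35 CPM in the Ad-hHIF2 organoids (log2 fold change -1.80, standard error 0.0667, adjusted p = 6.51e-07, edgeR). The controls of all 3 genes lay well above the HIF2 cultures. In the Notch list 5 of 20 genes fell and 3 rose, its median of -0.19 turning to 0.047 on log2(TPM + 1): the mediator Rbpj (-0.49) and the targets Hey1 (-0.47) and Nrarp (-0.84) fell with Jag1, and the receptor Notch2 rose (0.48). Of 22 tested S100 proteins and annexins 11 fell and 5 rose, the 11 annexins giving 5 rises and 3 falls, with a median of -0.43 that was 0.004 on log2(TPM + 1). S100a7a was at 38.9, 36.8 and 38.9 CPM in the Ad-GFP organoids and 6.60, 7.08 and 6.48 CPM in the Ad-hHIF2 organoids (log2 fold change -2.503, standard error 0.0777, adjusted p = 3.34e-07, edgeR), S100a14 fell from 12.2 ± 0.820 to 2.73 ± 0.622 CPM and S100a4 from 5.80 ± 0.525 to 2.45 ± 0.889 CPM, and no S100 gene rose, while Anxa2, Anxa4 and Anxa5, calcium-dependent membrane binders, rose from 571 ± 50.8 to 1112 ± 37.05 CPM, 179 ± 6.64 to 319.7 ± 17.1 CPM and 418 ± 7.17 to 679 ± 24.1 CPM and Anxa10, Anxa8 and Anxa3 fell (-1.20, -0.88 and -0.60). S100a3 fell from 5.21 ± 0.368 to 2.01 ± 0.702 CPM.

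Lineage and morphogen genes showed no common direction. Of 19 tested enterocyte genes 4 rose and 4 fell, and the rest of the 37 listed did not pass the count filter. The apolipoprotein Apoa4 was at 0, 0.0367 and 0 CPM in the Ad-GFP organoids and 2.23, 2.85 and 2.5 CPM in the Ad-hHIF2 organoids (adjusted p = 5.51e-05, edgeR), present in every HIF2 culture and nearly absent from the controls, and the retinol carrier Rbp2 rose from 1.09 ± 0.519 to 3.20 ± 0.398 CPM, whereas Hnf4a fell from 34.3 ± 1.51 to 24.3 ± 2.83 CPM. Enpep, a brush border aminopeptidase, fell from 0.621 ± 0.214 to 0.147 ± 0.0438 CPM. Among 18 stem cell genes 2 rose and 5 fell. Lgr5, the crypt stem cell receptor, was at 0.0837, 0.228 and 0.306 CPM in the Ad-GFP organoids and 1.18, 0.340 and 0.545 CPM in the Ad-hHIF2 organoids (adjusted p = 0.0714, edgeR), low in all 6 cultures, and Sox9 fell from 8.39 ± 3.19 to 2.69 ± 0.373 CPM (log2 fold change -1.63, standard error 0.263, adjusted p = 0.0023, edgeR). Ephb2, a receptor that positions crypt cells, rose from 2.34 ± 0.578 to 5.501 ± 0.268 CPM. In the canonical Wnt list 7 of 28 genes rose and 3 fell, with the coreceptor Lrp5 at 87.7, 88.4 and 90.2 CPM in the Ad-GFP organoids and 198, 176 and 198 CPM in the Ad-hHIF2 organoids (log2 fold change 1.10, standard error 0.0778, adjusted p = 2.84e-05, edgeR), the receptors Fzd6 (1.005) and Fzd7 (0.80) higher and Wnt7b (-0.92) lower. The target Axin2 did not pass the test (0.450 to 0.890 CPM, adjusted p = 0.253, edgeR). The canonical list as written also counts Wnt5a, which the paper describes as a non-canonical ligand and which rose from 1.13 ± 0.105 to 4.56 ± 0.929 CPM. Wnt4 fell from 9.57 ± 3.16 to 3.15 ± 1.54 CPM, with counts that were not whole and in the order of the background. In a separate list of noncanonical Wnt and planar polarity genes, 4 of 22 tested members rose and 1 fell. Of 27 TGF-β genes 7 fell and 5 rose, in cultures that all received a TGF-β receptor inhibitor: the receptor Tgfbr1 fell (-0.69) and Tgfbr2 rose (0.32). The inhibitory Smad7 rose from 38.3 ± 2.42 to 89.2 ± 4.07 CPM. In the BMP list 5 rose and 5 fell of 20; Id2, an inhibitor of bHLH factors, was at 25.3, 29.8 and 21.2 CPM in the Ad-GFP organoids and 97.8, 97.3 and 89.4 CPM in the Ad-hHIF2 organoids (log2 fold change 1.90, standard error 0.119, adjusted p = 1.4e-05, edgeR). The BMP antagonist Chrd rose from 1.45 ± 0.0672 to 3.19 ± 0.455 CPM, while the activin antagonist Fstl3 and the stress-induced ligand Gdf15 fell from 30.98 ± 1.88 to 13.8 ± 0.761 CPM and 8.12 ± 0.724 to 3.65 ± 0.621 CPM. Among genes of the regenerating, fetal-like epithelium and YAP targets 7 of 28 rose and 9 fell, with the gap junction protein Gja1 (from 21.3 ± 2.13 to 74.7 ± 5.40 CPM) and clusterin, Clu (from 1098 ± 72.7 to 1969 ± 179 CPM), higher and osteopontin, Spp1 (from 794 ± 46.4 to 409.5 ± 27.4 CPM), and Ly6a, known as Sca1 (from 12.5 ± 1.55 to 5.22 ± 0.750 CPM, in the order of the background), lower. Of 23 tested chloride, sodium and bicarbonate transport genes 5 rose and 7 fell. The bicarbonate cotransporter Slc4a4 rose from 71.3 ± 1.73 to 199 ± 11.9 CPM, and no other member of that list was called higher. The sodium pump subunit Atp1b1 fell from 8.79 ± 0.576 to 4.35 ± 0.404 CPM.

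Families were also taken by symbol alone, as coding genes with the same letters before the first digit and at least 8 tested members, so that no function list was needed. The largest shares of rises were in the Cog subunits of the Golgi tethering complex (5 of 8), the Fgf ligands (5 of 9), the Man mannosidases (5 of 9) and the Dcaf substrate receptors of the CUL4 ligase (6 of 11), followed at 50% by cadherins, Cnot deadenylase subunits, Lrp receptors and Parp enzymes. Cog6 (0.53), Cog7 (0.45) and Cog8 (0.42), and Man1a (0.72), Man2b2 (0.56) and Man1a2 (0.46), which trim N-glycans, changed by small steps. Lrp1, a large endocytic receptor, was at 283, 262 and 244 CPM in the Ad-GFP organoids and 778, 760.2 and 725 CPM in the Ad-hHIF2 organoids (log2 fold change 1.52, standard error 0.0876, adjusted p = 8.53e-06, edgeR), and Cdh6 at 18.9, 18.8 and 16.4 CPM in the Ad-GFP organoids and 89.6, 86.5 and 87.9 CPM in the Ad-hHIF2 organoids (log2 fold change 2.29, standard error 0.0791, adjusted p = 5.03e-07, edgeR), both far outside the range of the controls. The largest shares of falls were in the Eef elongation factors (6 of 8), the Rpl (34 of 47) and Rps (23 of 42) ribosomal proteins, the Rrp processing factors (5 of 8), the stem S (8 of 14, all of the falls being S100 proteins) and the Tomm import subunits (5 of 9). The families were picked for these shares, which are therefore a description. The Rps stem also holds ribosomal S6 kinases, which gave its 2 rises, and the stem S also holds S1pr1, S1pr2 and S100pbp.

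By share of counts, the coding genes that gained most included Angptl4, Fn1, Igfbp3, Clu, Ero1l, Sepp1 and Bsg. Angptl4 gained 1134 CPM, Igfbp3 958 and basigin, Bsg, a chaperone of lactate carriers, 756. The genes that lost most included the noncoding Gm26917, Malat1 and Rmrp, the RNA component of RNase MRP. Among coding genes they were mt-Co1 (-3125 CPM), Eef1a1 (-1458), Gapdh (-1088), Hspa8 (-933) and Hspa5 (-911). The gene mt-Co1, a mitochondrially encoded subunit of cytochrome oxidase, was at 7602, 8472 and 9130 CPM in the Ad-GFP organoids and 5973, 4491 and 5365 CPM in the Ad-hHIF2 organoids, and Rmrp at 18110, 16290 and 15630 CPM in the Ad-GFP organoids and 6811, 11680 and 10840 CPM in the Ad-hHIF2 organoids. Of 23 tested nuclear and snoRNA-host long noncoding RNAs 17 fell and 0 rose (median -0.80, -0.091 on log2(TPM + 1)), among them the snoRNA hosts Gas5, from 364 ± 24.1 to 247 ± 23.3 CPM, Zfas1, from 511 ± 45.98 to 294 ± 35.9 CPM, and Snhg15, from 6.60 ± 1.49 to 1.55 ± 0.225 CPM, which the deposited tables list by the older symbols 1500012F01Rik and Gm11974, and the paraspeckle RNA Neat1, from 1094 ± 54.1 to 673 ± 29.8 CPM. Snhg11, Rian and Mir17hg, the host of a miRNA cluster, fell from 2.21 ± 1.06 to 0.602 ± 0.343 CPM, 1.16 ± 0.472 to 0.329 ± 0.155 CPM and 4.43 ± 0.116 to 1.44 ± 0.0521 CPM, the counts of Snhg11 and Rian being not whole and in the order of the background.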

How the data were processed

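Total RNA of 9 organoid cultures was sequenced, and the 6 with Ad-GFP or Ad-hHIF2 were analysed here. For each library the authors ran RSEM and deposited, per gene, the expected count, the TPM and the FPKM with the effective length; aligner, genome build, annotation and strandedness are not given in the sources used here, so reads of overlapping or antisense genes and of near-identical copies may be split. Of 46517 genes, 46005 were matched by Ensembl ID to GENCODE M21 for biotype. Expected counts were rounded to whole numbers, filtered (filterByExpr), scaled (TMM) and tested with edgeR 4.0.16 (glmQLFit, glmQLFTest, R 4.3.3) on the 6 samples with no further covariate and Benjamini-Hochberg adjustment over all genes tested; the test was tried on simulated data first. The deposited FPKM was not used in a test, and the deposited TPM was used in an alternative with limma 3.58.1, whose fold changes on log2(TPM + 1) understate low genes; DESeq2 1.42.0 and limma-voom were others. 91 functional lists and 5 marker lists, the members and the rules were chosen with earlier results of these data known, so counts and medians of lists are descriptions. Named were genes among the 15 largest changes each way, genes with the largest gains and losses in CPM, members among the 4 largest called changes of each list described, and members that define a list; other members were chosen after their values were seen, and some whose call was lost with a library left out were not named; results on some further genes are not reported here. Replicate libraries differed well beyond counting noise (chi-square per degree of freedom 26.6 to 191), so none was a copy of another. Figures used matplotlib 3.10.9.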

Additional observations from a re-analysis of the deposited data

How the results depend on the processing

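With all 6 samples, TMM and the count filter there were 435 higher and 574 lower (406 and 349 coding) calls. Library totals gave 800 higher and 440 lower (726 and 250 coding), limma on log2(TPM + 1) 196 higher and 41 lower (168 and 19 coding), limma on log2(TPM + 0.1) 644 higher and 126 lower (574 and 59 coding), and a fit over all 9 samples 403 higher and 379 lower (381 and 284 coding). An adjusted p below 0.01 left 355 higher and 259 lower (340 and 193 coding), and dropping the fold threshold gave 2381 higher and 2035 lower (2327 and 1666 coding). Leaving out each library in turn gave 393 to 453 higher and 381 to 546 lower calls, the fewest falls without Ad-hHIF2 replicate 3, and 372 to 415 and 252 to 329 coding calls. The counts of the other alternatives stayed within 1.5 times of the first, including the 260 coding falls at 10 or more times the background density, an alternative chosen after seeing the data. With the replicate number as a block the calls were 437 higher and 599 lower (403 and 369 coding). The numbers were not taken as pairs, because deviations from the group means correlated at 0.0872, 0.0731 and 0.157 for the numbers 1, 3 and 4, and Ad-hHIF2 replicate 3 correlated best with Ad-GFP replicate 1 (0.0852).

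Of 348 named genes, 178 lost their adjusted p below 0.05 on log2(TPM + 1), 172 on log2(TPM + 0.1) and 36 with library totals, against 3 with DESeq2 and 1 with limma-voom; some genes were left unnamed because their calls were unstable, so these counts do not describe all genes. Direction reversed for Bnip3 (0.10 with library totals, 0.28 and 0.29 on the TPM scales in the order above), Pgk1 (0.11, 0.29 and 0.30 in the same order), Fos (0.11 and 0.14 on the TPM scales), Rgs19 (0.05 and 0.06 on the TPM scales), Hnf4a (0.00 on log2(TPM + 1)) and Hif1a (-0.02 without Ad-GFP replicate 1, in a range up to 0.17 with each library left out), and the cause was not tested. Slc40a1 reversed to 0.01 with no count filter, 0.22 with library totals, 0.05 with limma-voom, 0.12 and 0.35 on the TPM scales, 0.22 without Ad-GFP replicate 4 and 0.06 without Ad-hHIF2 replicate 1, in a range from -0.20 with each library left out. With 1 library left out 28 named genes lost their adjusted p below 0.05 at least once. Each is given with its highest adjusted p of edgeR and the library left out for it. Without Ad-GFP replicate 1 these were Hadha (0.0542) and Rmrp (0.0515). Without Ad-GFP replicate 3 they were Cog7 (0.0659), Lama5 (0.0854), Muc4 (0.063), Osmr (0.0721) and Pdk3 (0.0549). Without Ad-hHIF2 replicate 1 they were Abcg1 (0.142), Adora1 (0.126), Ccl2 (0.142), Hey1 (0.0514), Mcm10 (0.111), Rian (0.0933) and Slc2a3 (0.117). Without Ad-hHIF2 replicate 3 they were Ccna2 (0.0569), Cxcl1 (0.053), Fos (0.0742), Oas3 (0.102), Snhg11 (0.0801), Tfpi (0.0681) and Usp18 (0.0634). Without Ad-hHIF2 replicate 4 they were Csf1r (0.144), Dusp1 (0.126), Egr2 (0.0587), Enpep (0.0834), Fgf11 (0.0563), Rgs19 (0.0548) and Spns3 (0.131). Counts of at least 5 members in gene groups, where not given above, moved by over 1.5 times with 1 library left out for chemokines and colony-stimulating factors (falls 8, 5 to 7), NF-kB feedback and target genes (rises 5, 3 to 7), fatty acid oxidation, peroxisome and lipid droplets (falls 5, 3 to 7), respiratory chain complex I (falls 6, 3 to 7), respiratory chain complexes II to V (falls 7, 3 to 8), translation factors and tRNA synthetases (falls 9, 5 to 10), DNA replication (falls 12, 7 to 13), immediate early genes (rises 5, 3 to 5), unfolded protein and amino acid stress (falls 12, 7 to 9), intestinal stem cell genes (falls 5, 3 to 5), TGF-beta signalling (rises 5, 5 to 8), BMP signalling (falls 5, 2 to 4), chloride, sodium and bicarbonate transport (rises 5, 2 to 6) and chloride, sodium and bicarbonate transport (falls 7, 4 to 5). Smaller counts moved by as much in further groups, such as adenosine production and clearance (falls 4, 2 to 4) and mucins and glycan synthesis (falls 4, 2 to 5). So did cyclins, CDKs and inhibitors (falls 4, 2 to 3), enterocyte identity (falls 4, 2 to 4) and angiogenic and vasoactive genes (falls 3, 3 to 5). Intestinal stem cell genes (rises 2, 1 to 3) and the EGF family (falls 1, 0 to 0) were others. The background was lower in all Ad-hHIF2 libraries, which limits what the falls of low genes can show, and 85.7% of expected counts over all 9 libraries of the series were within 0.005 of a whole number.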

Other observations

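The gene families and genes given here lie outside the lists described above and were chosen after their values were seen. Phosphodiesterases, which degrade cyclic nucleotides, were called higher at 4 of 13 tested Pde genes: Pde2a, Pde1b (from 0.357 ± 0.222 to 1.78 ± 0.324 CPM), Pde9a (from 1.19 ± 0.115 to 3.54 ± 0.261 CPM) and Pde4d (from 20.7 ± 2.39 to 52.1 ± 1.27 CPM), while 2 others fell by under 2-fold and the family median was 0.15 on the log2 scale. Of 11 tested Rgs genes, regulators of G protein signalling, 3 rose and 2 fell, with a median log2 fold change of -0.098. The rises were Rgs16 from 0.769 ± 0.0442 to 5.76 ± 0.271 CPM, Rgs9 from 1.23 ± 0.462 to 9.53 ± 0.205 CPM and Rgs2 from 0.581 ± 0.235 to 4.25 ± 0.218 CPM, and the falls were Rgs11 from 21.7 ± 2.98 to 9.63 ± 1.10 CPM and Rgs19 from 10.9 ± 0.786 to 7.84 ± 0.675 CPM. Both groups therefore held members that moved in opposite directions, and no list of them was tested.

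Some proteoglycan core proteins and enzymes that build their sugar chains, also chosen after their values were seen, changed in both directions. The cartilage proteoglycan Acan was at 237, 221 and 249 CPM in the Ad-GFP organoids and 779, 729.6 and 761 CPM in the Ad-hHIF2 organoids (log2 fold change 1.69, standard error 0.0839, adjusted p = 3.71e-06, edgeR), and the syndecan Sdc3 at 18.2, 19.1 and 24.4 CPM in the Ad-GFP organoids and 79.8, 75.5 and 97.2 CPM in the Ad-hHIF2 organoids (log2 fold change 2.04, standard error 0.136, adjusted p = 1.94e-05, edgeR). Neither gene overlapped between the groups. The enzymes Ugdh (from 371 ± 25.9 to 857 ± 37.03 CPM) and Uxs1 (from 8.71 ± 1.32 to 22.2 ± 2.01 CPM), which make UDP-glucuronate and UDP-xylose, the chondroitin sulfotransferase Chst15 (from 1.26 ± 0.226 to 7.13 ± 0.644 CPM) and the heparan sulfate enzymes Extl3 (from 18.8 ± 1.14 to 42.04 ± 1.69 CPM) and Hs6st2 (from 3.32 ± 0.727 to 7.505 ± 0.280 CPM) rose, whereas Chsy1 (from 32.1 ± 4.16 to 21.6 ± 2.42 CPM) and Hs3st3b1 (from 3.78 ± 0.733 to 1.69 ± 0.223 CPM) fell. Of 32 tested ephrins, semaphorins and plexins 8 rose and 6 fell, near the background of all coding genes, with a median log2 fold change of 0.005. Sema4f rose from 3.38 ± 0.711 to 25.4 ± 0.572 CPM, Sema5a from 3.40 ± 0.188 to 11.9 ± 1.66 CPM, Sema7a from 1.99 ± 0.314 to 5.80 ± 1.07 CPM, Plxna4, a semaphorin receptor chain outside that list, from 19.9 ± 2.18 to 93.1 ± 1.79 CPM and Efna1 from 67.3 ± 0.621 to 147 ± 7.73 CPM, while Epha4 fell from 48.5 ± 4.54 to 24.6 ± 3.21 CPM and Sema3c from 195 ± 10.8 to 106 ± 0.431 CPM.

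Some single genes with large changes at sizeable counts fit none of the groups. Itpk1, an inositol phosphate kinase, was at 109, 108 and 106 CPM in the Ad-GFP organoids and 612, 589.8 and 576 CPM in the Ad-hHIF2 organoids (log2 fold change 2.46, standard error 0.0774, adjusted p = 3.34e-07, edgeR). Adipor2, an adiponectin receptor, was at 89.8, 91.8 and 100.4 CPM in the Ad-GFP organoids and 407, 413 and 429.6 CPM in the Ad-hHIF2 organoids (log2 fold change 2.15, standard error 0.0818, adjusted p = 7.57e-07, edgeR). Limk1, which phosphorylates cofilin, was at 20.4, 19.7 and 27.8 CPM in the Ad-GFP organoids and 138, 128 and 148 CPM in the Ad-hHIF2 organoids (log2 fold change 2.62, standard error 0.138, adjusted p = 5.02e-06, edgeR). Every HIF2 culture was above every control for these 3 genes. The HIF feedback regulator Cited2 and the hypoxia-responsive Ndrg1 rose from 99.6 ± 9.39 to 214 ± 26.6 CPM and 417 ± 10.2 to 896 ± 37.1 CPM, and the receptors Tnfrsf9 and Havcr2, better known from T cells, from 8.93 ± 1.43 to 61.2 ± 3.90 CPM and 5.04 ± 1.27 to 28.1 ± 1.13 CPM. Among falls with whole counts in all 6 libraries were the pantetheinase Vnn1, at 96.8, 88.9 and 98.7 CPM in the Ad-GFP organoids and 37.2, 39.3 and 38.4 CPM in the Ad-hHIF2 organoids (log2 fold change -1.31, standard error 0.0730, adjusted p = 6.91e-06, edgeR), Nampt, the rate-limiting enzyme of NAD salvage, at 120.2, 135 and 134 CPM in the Ad-GFP organoids and 62.8, 55.8 and 60.7 CPM in the Ad-hHIF2 organoids (log2 fold change -1.11, standard error 0.0822, adjusted p = 3.42e-05, edgeR), and Flot1, a membrane scaffold, from 47.03 ± 0.762 to 19.6 ± 1.85 CPM.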
